A study of Homo sapiens with 2 samples.

Results

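miR-4521 (hsa-miR-4521) is a human miRNA entry chosen by its read counts, since it had the lowest ratio of hypoxia over normoxia among the mature miRNAs past an expression filter in A549 libraries. It is 1 of 859 mature miRNAs listed, and it was found by its name. A549 is a human lung adenocarcinoma cell line, grown here in DMEM with 10% FCS. Cells were kept for 24 h at 20% oxygen (normoxia) or for 24 h at 1.2% oxygen (hypoxia), and 1 small RNA library was sequenced per condition. Since the ratio between these libraries chose the miRNA, that ratio is given below as a description, and with n = 1 per condition no difference has a replicate check or a p-value.

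A miRNA is normally cut by Drosha and Dicer from a hairpin in a longer transcript, and it recognises its targets mainly through its seed, bases 2 to 8 from the 5′-end. A tRNA gene, in contrast, is transcribed by RNA polymerase III into a precursor with a short tail behind the tRNA, which ends at a run of uridines. RNase Z cuts that tail, the 3′ trailer, from the tRNA at the base after the last base of the tRNA gene. Trailers are short-lived in most cells, but some are found as stable small RNAs. miR-4521 and miR-3676, both listed as miRNAs in the annotation used for counting, have also been described in the literature as such products of tRNA genes.

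The position of miR-4521 is shown first, because miR-4521 lies right behind a tRNA gene. In hg19, the build named in the submitters' processing notes, the mature sequence lies on chromosome 17 from 8090266 to 8090287. The listed gene tRNA7-SerGCT, for a serine tRNA, lies from 8090184 to 8090265, so that 0 bases separate the last base of the tRNA gene from the first base of miR-4521. RefSeq gives the same order on the plus strand in GRCh38. There the tRNA gene TRS-GCT4-3 ends at 8186947 and mature miR-4521 covers 8186948 to 8186969, while the annotated MIR4521 hairpin (8186945 to 8187004) overlaps the last 3 bases of the tRNA gene. The nearer end of the next gene that encodes a protein, BORCS6, lies 1375 bases behind the mature sequence, and no other RefSeq gene overlaps the hairpin.

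The mature sequence (RefSeq) is shown with the seed in capitals, then the hairpin (RefSeq) with a run of 4 uridines in capitals, then the tRNA gene as listed in the table, in lower case, followed by miR-4521 in capitals and 1 further base.
miR-4521: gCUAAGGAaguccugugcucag
MIR4521 hairpin: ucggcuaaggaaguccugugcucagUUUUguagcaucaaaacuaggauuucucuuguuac
tRNA7-SerGCT and miR-4521: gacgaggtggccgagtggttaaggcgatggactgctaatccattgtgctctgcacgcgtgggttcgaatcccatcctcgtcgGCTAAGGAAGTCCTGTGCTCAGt

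miR-4521 is 22 bases long and has 12 G or C bases. It starts at base 4 of the 60-base hairpin, and the run of uridines starts at base 26, with 0 bases between the end of the mature sequence and the run. The hairpin folded with a predicted minimum free energy of -17.1 kcal per mol, or -0.285 per base, against a median of -0.452 per base over the 1562 human hairpins of the RefSeq table. Only 6.02% of these hairpins had as weak a fold per base or weaker. In the predicted structure, 15 of the 22 mature bases were paired. These are computed values for the annotated hairpin and say nothing on how the RNA was made in these cells.

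The seed of miR-4521 was not shared. Among the other listed mature miRNAs, 0 had the same bases 2 to 8 and 0 the same bases 2 to 7, and among the 2370 mature names of the RefSeq table, 0 others had the same bases 2 to 8. Over the full length, the nearest listed sequences were 8 edits away (substitutions, insertions or deletions), against a median of 13. These were miR-3653 and miR-5004-3p, and 6 miRNAs tied at 9 edits, of which miR-139-5p came first by name. The 3 are shown in DNA letters with bases 2 to 8 in capitals, to let the distance be seen.
miR-3653: cTAAGAAGttgactgaag
miR-5004-3p: cTTGGATTttcctgggcctcag
miR-139-5p: tCTACAGTgcacgtgtctccag
miR-3653 had 1 count in normoxia and 2 in hypoxia, and miR-5004-3p had 4 and 19. miR-139-5p, at 9 edits, had 14 and 41. Of the others tied with it, miR-17-3p had the most, with 125 and 141 counts and a log2 ratio of -0.86 (-1.23 to -0.51). All 8 had fewer counts than miR-4521 in each library.

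The table lists raw read counts for 5475 small RNA features. Mature miRNAs received 4514818 of 6449337 counts in normoxia and 8600160 of 13115226 in hypoxia, so the hypoxia library was the deeper. The epithelial miRNAs fixed as markers of the cell type (7 of 8 listed, led by miR-200b-3p) summed to 1171 CPM in normoxia and 1365 CPM in hypoxia, where CPM is the count per 1000000 mature miRNA counts of the library. Those of blood cells (4 of 6 listed) summed to 19.9 and 23.4 CPM, of endothelial cells (2 of 2) to 222 and 221 CPM, of stromal and smooth muscle cells (4 of 4) to 239 and 236 CPM, and of neural cells (2 of 2) to 52.1 and 53.1 CPM. The muscle markers (1 of 3 listed) summed to 0.0 and 2.09 CPM and the liver marker stood at 0.886 and 0.465 CPM. Of the markers, miR-223-3p, miR-144-3p, miR-1 and miR-206 are not listed, and miR-203a is listed only under its older name miR-203 (17 and 30 counts), which is among the 7 epithelial markers summed. The part of other cells in the result for miR-4521 was not tested.

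miR-4521 had 2325 counts in normoxia and 455 in hypoxia, although the hypoxia library was the deeper. Its level was 515 CPM in the former and 52.9 CPM in the latter. As a share of mature miRNA counts it was 0.0515% (exact Clopper-Pearson 95% interval 0.0494% to 0.0536%) and 0.00529% (0.00482% to 0.00580%), and the intervals are far apart. Only counting error enters them, so library preparation and differences between cultures are not covered. By count, miR-4521 was the 76th miRNA of the normoxia library and the 188th of the hypoxia library. In a bulk library, fewer cells with the RNA and less of it per cell cannot be told apart.

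After scaling by TMM (a trimmed mean of the log ratios over mature miRNAs), the level in hypoxia over that in normoxia gave a log2 ratio of -3.39 (exact conditional 95% counting interval -3.55 to -3.25), a level 10.5-fold lower in hypoxia. A miRNA was counted as lower or higher by size alone, from a log2 ratio of 0.9 in either direction at a mean log2 CPM above 3. By this rule 15 of 339 miRNAs were lower in hypoxia (4.42%) and 8 were higher (2.36%). The miRNA was chosen with this same ratio, so nothing is read from its place among them. miR-210, the best known target of the hypoxia-inducible factors among miRNAs, had 4307 counts at 20% and 22849 at 1.2% oxygen, with a log2 ratio of 1.36 (1.32 to 1.41).

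**Figure D1:**
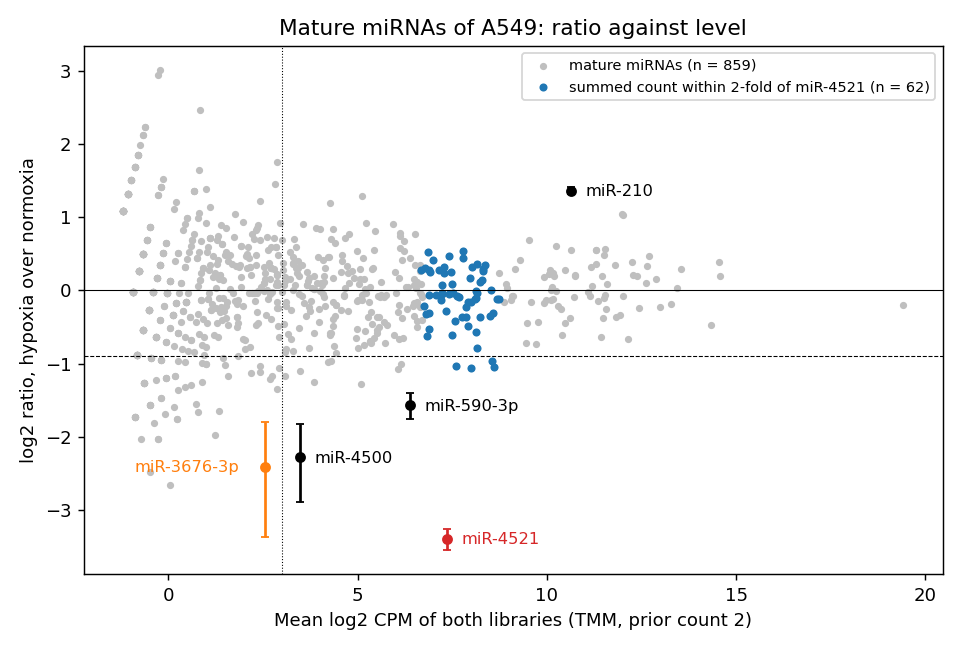
Log2 ratio of hypoxia over normoxia against the mean log2 CPM for the 859 mature miRNAs, 1 library per condition. Bars on named miRNAs are 95% counting intervals, the dotted and dashed lines mark a mean log2 CPM of 3 and a log2 ratio of -0.9, and blue points are the 62 miRNAs within 2-fold of the summed count of miR-4521. miR-4521 lies at -3.39, below every other point.

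The next values above it are given as a description. miR-4500, which carries the let-7 seed, was next, with 106 counts in normoxia and 43 in hypoxia and a log2 ratio of -2.28 (-2.89 to -1.82). Its difference from miR-4521 was 1.11 on the log2 scale. miR-590-3p followed with 622 and 431 counts (log2 ratio -1.57), then miR-744-5p with 230 and 195 (-1.27), miR-219-5p with 95 and 81 (-1.25) and miR-29a-5p, the less abundant arm of miR-29a, with 54 and 48 (-1.17). Likeness is measured here by the difference in log2 ratio over 2 libraries, which says nothing of shared control. Without a filter on level, miR-4521 was still the lowest of all 859, and the entry directly above it, miR-3187-3p at -2.66, rests on 10 counts and 1 count.

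miRNAs of similar abundance are given to show the scale of the ratio. They all passed the expression filter, so that the choice of miR-4521 fixes its place below them. The 62 mature miRNAs within 2-fold of its summed count of 2780 ranged from 89.3 to 541 CPM in normoxia (median 212) and from 95.9 to 424 CPM in hypoxia (median 203). In normoxia 1 of them, miR-7-5p, was above miR-4521, and in hypoxia all 62 were. Their log2 ratios had a median of -0.06 and quartiles of -0.32 and 0.25, and ran from -1.06 for miR-671-5p (1593 and 1574 counts) to 0.54 for miR-30e-3p (787 and 2367 counts). Their SD was 0.395. Of the 62, 4 passed the rule of size as lower, beside 15 of the 339 miRNAs past the filter (4.42%), so nothing is read from this count. The gap between miR-671-5p and miR-4521 was 2.33 on the log2 scale.

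The miRNAs next to it in summed count give the same picture at the level of single entries. Directly above it stood miR-660-5p with 1150 counts in normoxia and 1841 in hypoxia (log2 ratio -0.36), miR-4256 with 1094 and 1928 (-0.23) and miR-1260a with 1249 and 1832 (-0.49). Directly below it stood miR-340-5p with 1064 and 1707 (-0.36), miR-9-3p with 913 and 1769 (-0.09) and miR-22-5p with 881 and 1717 (-0.08). All 6 had more counts in the deeper library, while miR-4521 had fewer.

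**Figure D2:**
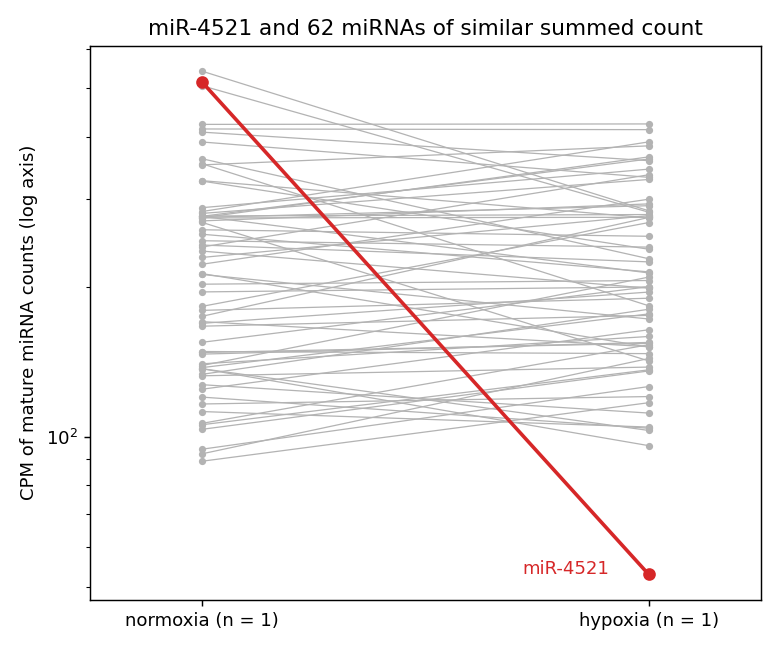
CPM of mature miRNA counts (log axis) in the normoxia and the hypoxia library for miR-4521 (red) and the 62 miRNAs within 2-fold of its summed count (grey), with a line joining the values of each miRNA. miR-4521 goes from 515 to 52.9 CPM, from above 61 of the 62 to below all of them.

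Every scaling gave a ratio of the same sign. Over 9 scalings it lay between -3.25, with the summed counts of tRNA features as the library size, and -3.64, with the counts of tRNA7-SerGCT alone. A scaling moves all miRNAs alike, so that the place of miR-4521 among them follows from its choice. The median over the 339 miRNAs past the filter moved from -0.03 under TMM to values between -0.29 and 0.10. The median of the miRNAs of similar summed count moved with it, from -0.31 to 0.08, and changed sign, and miR-210 stayed between 1.11 and 1.5. When each of the 20 other most abundant miRNAs served in turn as the only reference, the ratio of miR-4521 ran from -4.43, against miR-374b-5p, to -2.72, against miR-20a-5p.

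**Figure D3:**
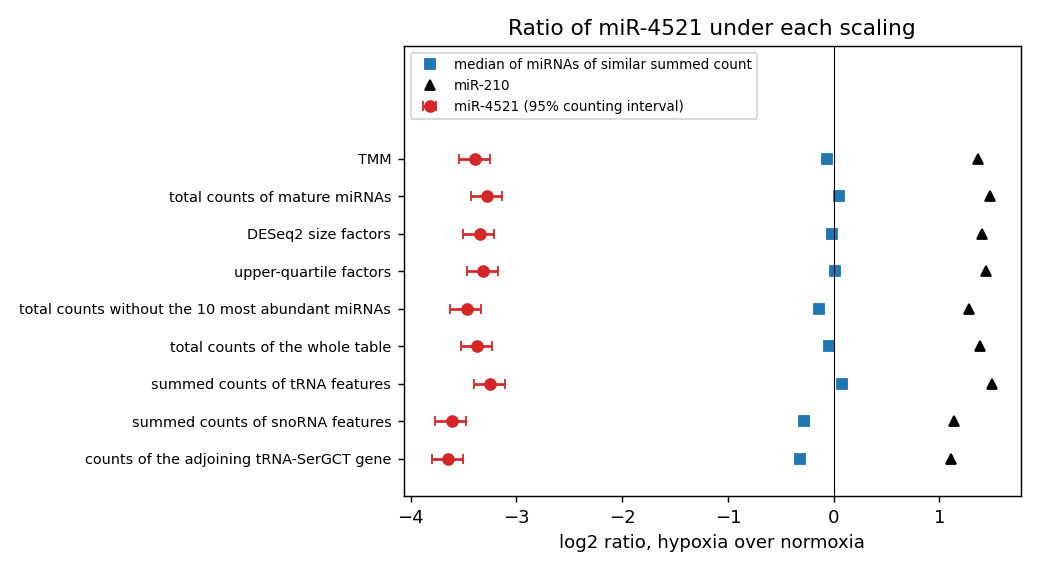
Log2 ratio of hypoxia over normoxia under 9 scalings for miR-4521 (red, with 95% counting intervals), for miR-210 (triangles) and for the median of the 62 miRNAs of similar summed count (squares). miR-4521 lies between -3.64 and -3.25. A scaling moves all miRNAs alike, so its distance from the other values is no separate result of each scaling.

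miRNAs that share the length or base content of miR-4521 were centred near 0. The 189 other miRNAs past the filter with 22 bases had a median log2 ratio of 0.04 and a lowest value of -1.27. The 122 with a G and C count within 1 of miR-4521 had a median of 0.08 and a lowest value of -1.0, and the 18 that start with G had a median of 0.01 and a lowest value of -0.72. The 5 others ending in the bases CAG had a median of 0.25 and a lowest value of -1.17. Of these sets, in the same order, 6, 3, 0 and 2 miRNAs passed the rule of size as lower, beside 4.42% of all miRNAs past the filter, and the last set is too small to read. Among the 23 other miRNAs numbered 3000 or higher, the median was -0.13 and 1, miR-4500, passed as lower, a share near the 4.42% of all miRNAs past the filter.

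The small RNAs around miR-4521 were then examined, and its position beside a tRNA gene led to a further search after these values had been seen. Within 10 kb the table lists 4 tRNA genes, both arms of miR-3676 and a longer miRNA gene entry, beside miR-4521. tRNA7-SerGCT, directly in front of miR-4521, had 131 counts in normoxia against 322 in hypoxia, with a log2 ratio of 0.25 (-0.04 to 0.56). The tRNA gene thus had more counts in the deeper library, while miR-4521 had fewer. Per count on tRNA7-SerGCT there were 17.7 counts of miR-4521 in normoxia and 1.41 in hypoxia, a log2 change of -3.65 (standard error 0.167 from counting) that needs no scaling of the libraries.

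These numbers rest on how reads were assigned, both among tRNA genes of the same sequence and at the border between the tRNA gene and miR-4521, which is not given in the sources. The listed genes chr15.tRNA10-SerGCT and chr6.tRNA123-SerGCT have the same sequence as tRNA7-SerGCT, with 256 and 254 counts in normoxia and 532 and 523 in hypoxia. The copies were thus counted at nearly the same level and tRNA7-SerGCT at a lower one, although a read that lies inside the shared sequence matches all 3 alike. The 8 listed genes for this tRNA summed to 1506 and 3288 counts, a log2 ratio of 0.08 (-0.006 to 0.171), and the single genes lay between -0.24 and 0.26. Per count on this sum there were 1.54 counts of miR-4521 in normoxia and 0.138 in hypoxia, a log2 change of -3.48 (standard error 0.0865). Neither the counts on the gene beside miR-4521 nor those on all listed serine tRNA genes with this anticodon had a ratio near that of miR-4521. Such counts come from the tRNA sequence, which is shared between genes. They do not give the output of a single gene, so whether transcription of tRNA7-SerGCT changed was not tested.

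The other tRNA genes nearby had counting intervals that included 0. tRNA8-ThrAGT, for a threonine tRNA, had 660 and 1330 counts (-0.03), tRNA6-TrpCCA 46 and 70 (-0.42) and tRNA9-IleAAT 89 and 202 (0.14). Over the 13 tRNA genes within 60 kb the log2 ratios ran from -0.81 to 0.51 with a median of 0.05, and 0 of them passed the fold of the rule of size as lower. Over all 529 listed tRNA genes with 20 or more counts the median was -0.09, 34 were lower by that fold (6.43%), and 0 were as low as miR-4521.

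A second entry of the same kind lies 264 bases behind miR-4521. All 571 listed tRNA genes were searched for any of the 4904 other features lying within 2 bases of either end. There were 2 such features, both right behind the 3′-end of a tRNA gene with 0 bases between, and none in front of one. They were miR-4521 and miR-3676-3p, which lies from 8090552 to 8090571 behind tRNA8-ThrAGT (8090478 to 8090551). A trailer with no entry in the annotation would not have been counted. The sequence from the table is shown in the same way, with the tRNA gene in lower case, miR-3676-3p in capitals and 1 further base.
tRNA8-ThrAGT and miR-3676-3p: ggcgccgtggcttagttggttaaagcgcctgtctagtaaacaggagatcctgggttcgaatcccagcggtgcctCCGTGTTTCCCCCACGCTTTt

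miR-3676-3p was also lower in hypoxia, with 57 counts in normoxia and 20 in hypoxia. This was 12.6 and 2.33 CPM, and the log2 ratio was -2.41 (-3.37 to -1.80), a level 5.30-fold lower. With a mean log2 CPM of 2.55 it did not pass the expression filter. It was the fourth lowest of all 859 miRNAs, of which 80 were lower by the fold of the rule of size (9.31%). Of the 137 other miRNAs within 2-fold of its summed count of 77, 0 had a lower ratio. The lowest of them, miR-4500 at -2.28, lay inside the counting interval of miR-3676-3p. The median of the 137 was 0.12 with quartiles of -0.25 and 0.40. Computed without a prior count, the log2 ratio of miR-3676-3p lay between -2.81 and -2.42 over the 9 scalings.

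Counts on the tRNA gene in front of it did not move in the same way, and transcription of that gene was likewise not tested. Per count on tRNA8-ThrAGT there were 0.0864 counts of miR-3676-3p in normoxia and 0.0150 in hypoxia, a log2 change of -2.52 (standard error 0.381). Genes with the same sequence as tRNA8-ThrAGT on chromosomes 19 and 17 had 104 and 101 counts in normoxia and 259 and 253 in hypoxia. tRNA8-ThrAGT was thus counted at a higher level than its copies, and how reads inside the shared sequence or across its 3′-end were assigned is likewise not given. miR-3676-5p, which lies inside tRNA8-ThrAGT, had 33 and 30 counts (-1.11, interval -1.94 to -0.42), and the longer gene entry that overlaps both arms and the tRNA had 18 and 10 (-1.65, interval -3.17 to -0.70). These last 2 entries share bases with the tRNA and rest on few counts.

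**Figure D4:**
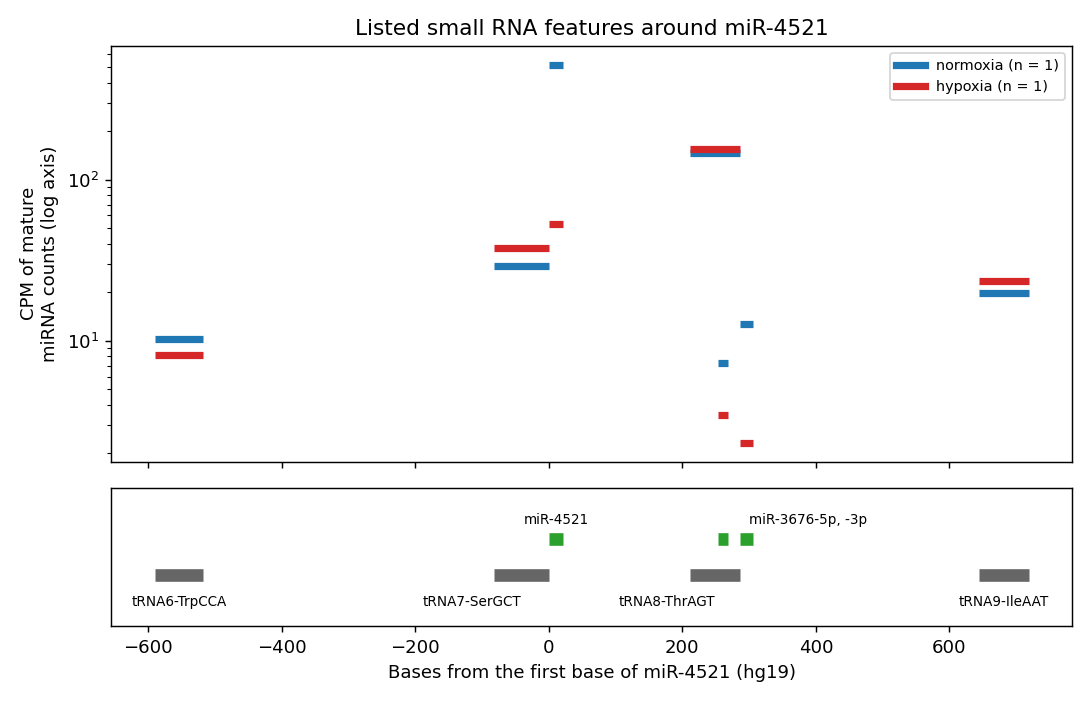
Listed small RNA features within 10 kb of miR-4521, without the longer gene entry that overlaps miR-3676, by their distance in bases from the first base of miR-4521. The upper panel gives CPM of mature miRNA counts (log axis) in normoxia (blue) and hypoxia (red), and the lower panel the extent of each feature. miR-4521 and miR-3676-3p, each right behind a tRNA gene, are lower in hypoxia, while tRNA7-SerGCT (29.0 and 37.4 CPM) and tRNA8-ThrAGT (146 and 155 CPM) are not.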

How the data were processed

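Small RNAs of A549 cells were ligated, reverse transcribed, amplified by PCR without molecular identifiers, size selected and sequenced on the SOLiD platform, with 1 library for each oxygen level. Raw counts per feature were deposited without normalization. Per the study's methods, LifeScope was run on SOLiD small RNA data with default settings and a miRBase annotation. The submitters' processing notes name hg19. Treatment of reads that match several features: not given in the sources used here. Every per-sample column was used.

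Positions and sequences of mature miRNAs in the table carry 1 extra base on each side, which was removed. Of 859 mature miRNAs, 687 had their name in the RefSeq table (GRCh38.p14) and 653 of these were then identical. Ratios used edgeR version 4.0.16 in R version 4.3.3 (TMM over mature miRNAs, prior count 2 scaled to library size). Other scalings used DESeq2 version 1.42.0 size factors, upper-quartile factors, totals and single references. Hairpins were folded with ViennaRNA version 2.7.2. Python version 3.11.15 and scipy version 1.17.1 served for the rest. Mature totals were 4514818 (normoxia) and 8600160 (hypoxia) counts, and all intervals (95%) cover counting error only. The calculation was tested on simulated data.

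miRNAs were named by rule: miR-210, the 5 ratios nearest to that of miR-4521, the 3 neighbours on either side in summed count, the extremes among miRNAs of similar summed count, features within 10 kb, and the 3 nearest sequences. miR-7-5p, miR-17-3p, miR-3187-3p, miR-374b-5p, miR-20a-5p and the tRNA copies were named after their values were seen. miR-4521, the lists and the alternatives were chosen with earlier results of these data known, and the search beside tRNA genes after its position was seen.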

Additional observations from a re-analysis of the deposited data

How the results depend on the processing

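The log2 ratio of miR-4521 kept its sign in all 12 alternatives, which follows from the choice of a miRNA with so low a ratio. Its rank is likewise fixed by its choice, and neither was read as a sign of stability. In place of -3.39 it was -3.25 with tRNA features as the library size, -3.61 with snoRNA features, -3.64 with the adjoining tRNA gene (an alternative chosen after seeing the data), and between -4.43 and -2.72 with single references, by construction of the library size. With no filter on level, 80 miRNAs in place of 15 were lower, since all 859 rather than 339 then entered. With every count of the table in the denominator, the normoxia share of miR-4521 was 0.0361% and the hypoxia share 0.00347%. The shares were 0.333% and 0.0299% without every miRNA among the 10 most abundant of either library, again by construction.

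No paired analysis was possible because neither oxygen level was repeated, and leaving out a library would leave no ratio. Depth limits miR-3676-3p, with 57 and 20 counts, far more than miR-4521. Read ends on miR-4521, including any uridines behind the listed sequence, were not analysed here.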
